A study of Caenorhabditis elegans with 4 samples.

Results

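The 9 genes described here encode the enzymes and the transporter that build chondroitin in Caenorhabditis elegans. They were taken by name as sqv-1 to sqv-8 (squashed vulva) and mig-22, and each name matched 1 row of the 46643 in the count table. The groups compared were whole wild-type (N2) animals, all grown from synchronised L1 larvae on OP50 bacteria at 25 °C and collected at day 1 of adulthood. The ketamine group (2 libraries) was raised on plates with 2.5 mM ketamine, and the control group (2 libraries) received M9 buffer (0 mM). The labels do not say whether the 2 libraries of a group came from separate cultures, so that p-values measure only the spread between libraries, which may be technical.

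Chondroitin is a long chain of alternating glucuronic acid and N-acetylgalactosamine that is carried on secreted core proteins. Its sugars are activated in the cytosol as UDP-sugars and moved into the Golgi lumen. There a short linker of xylose, galactose, galactose and glucuronic acid is built on a serine of the core protein, and the chain is then extended on it. In the worm, chondroitin fills and expands the vulval lumen, forms a layer of the eggshell and is needed for the first cell divisions of the embryo and for cell migration. Mutants of the pathway show the squashed vulva that gave the sqv genes their name. The linker is shared with heparan sulfate, so that only the last enzymes are particular to chondroitin. The question put to these libraries was whether transcripts of any step of the pathway differed between animals raised with and without ketamine.

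The counts summed to 34533449 and 29192110 in the ketamine libraries and to 43419202 and 36241505 in the control libraries. Control 1 stood apart from the other 3. Genes of the mitochondrial genome took 0.966% and 1.07% of the counts in the ketamine libraries, against 3.55% in control 1 and 1.18% in control 2, and the part of this in the results was not tested beyond leaving those genes out. Across genes, log2 CPM (CPM being counts per 1000000 of the library, here scaled with edgeR's TMM factors) correlated at 0.964 between the controls and at 0.990 between the ketamine libraries, while control 2 correlated at 0.980 and 0.982 with the ketamine libraries. Genes are not independent replicates, and these values describe the libraries alone. All 13 oocyte and eggshell markers and all 6 vitellogenins were detected in every library, as were all 12 molting and larval epidermis markers. The summed CPM of the oocyte list was 11110 and 11065 in the ketamine libraries and 8413 and 9771 in the controls, and that of the molting list was 157 and 118 against 82.4 and 117. In whole animals, fewer cells of a type and less RNA per cell cannot be told apart.

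The members lie on 5 chromosomes (WBcel235, coordinates of the deposited table). sqv-4 (F29F11.1, V:10659631-10661469, minus strand) and sqv-1 (D2096.4, IV:8361087-8363439, plus strand) encode the cytosolic enzymes, and sqv-7 (C52E12.3, II:7010810-7012690, minus strand) the transporter. The linker enzymes are encoded by sqv-6 (Y50D4C.4, V:951587-964800, minus strand), sqv-3 (R10E11.4, III:9778323-9780319, minus strand), sqv-2 (Y110A2AL.14, II:2889104-2894397, minus strand) and sqv-8 (ZK1307.5, II:9647938-9649224, plus strand). The elongation genes are sqv-5 (T24D1.1, I:9947805-9953351, plus strand) and mig-22 (PAR2.4, III:8763497-8767325, minus strand). In the Ensembl annotation of this build the longest predicted proteins run from 289 residues for SQV-3 to 806 for SQV-6, and mig-22 has the most annotated transcripts (7). The counts are per gene and do not separate isoforms. Only sqv-3 and sqv-4 overlap another gene with at least 10 counts in a library, in each case on the opposite strand. sqv-3 shares 527 bases with usp-46 (a ubiquitin-specific protease gene) and sqv-4 shares 28 bases with tut-2. Whether counting used strand is not given in the sources used here, so that the assignment of reads within the shared bases is uncertain.

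None of the 9 genes was called different between ketamine and control animals. Their fold changes ran from 0.788 for sqv-7 to 1.21 for sqv-2 on the linear scale, and the median log2 fold change was 0.08, against -0.01 over all 15793 genes tested. All 9 passed the filter on low counts, and the smallest count of any member in any library was 1336. In the quasi-likelihood test of edgeR, with p adjusted over the whole table by the Benjamini-Hochberg method, 0 of 9 reached an adjusted p under 0.05 with at least a 2-fold change, where 0.095% of all genes tested did so. The adjusted p of the 9 genes lay between 0.748 and 0.935. At an unadjusted p under 0.05, 0 of 9 passed in edgeR at any fold (6.09% of all genes tested), so that 0 of 9 were at least 2-fold higher (2.05% of all genes) and 0 of 9 at least 2-fold lower (1.63%). DESeq2, whose adjusted p of the 9 genes was at least 0.981, also called 0 of 9 where it called 0.836% of all genes tested. The 95% interval of the log2 fold change lay within 2-fold in either direction for 8 of the 9 genes, all but sqv-7, and did so for 41.4% of all genes tested. For these 8 genes a 2-fold difference lies outside the interval, while a difference inside it could not be told from none.

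**Figure D1:**
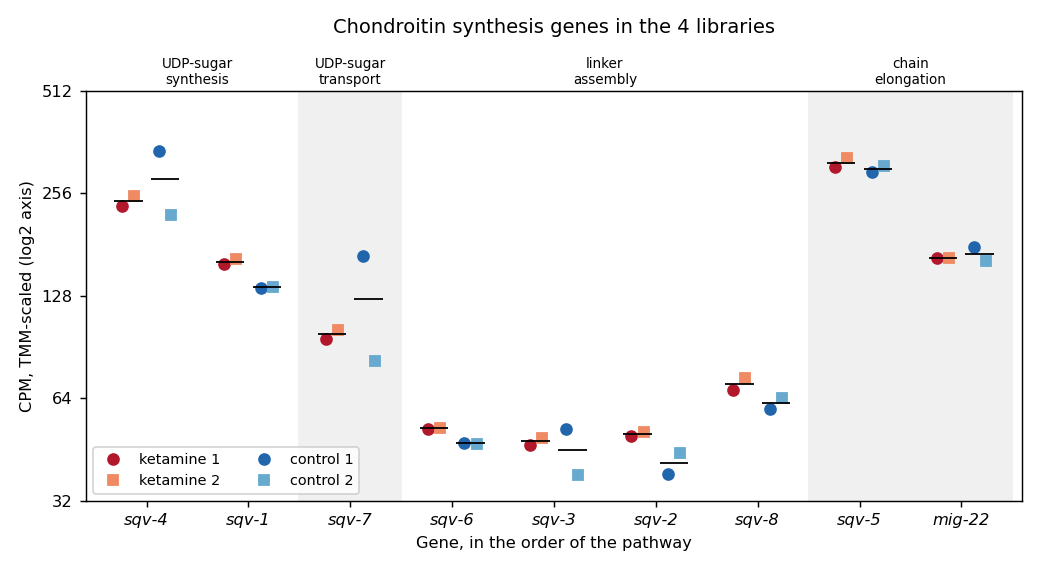
TMM-scaled CPM (log2 axis) of the 9 chondroitin synthesis genes, in pathway order, with 1 point per library and a line at each group mean (n = 2). The ketamine points of each gene lie close together, while control 1 (dark blue) stands well above control 2 for sqv-4 (342 against 221 CPM) and sqv-7 (168 against 82.4 CPM).

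The pathway opens with sqv-4, which encodes UDP-glucose dehydrogenase, the source of UDP-glucuronic acid. sqv-4 had 234 and 251 CPM in the ketamine libraries, against 342 and 221 CPM in the controls. The ketamine libraries lay between the controls, so that the groups overlapped. Its log2 fold change was -0.21 (SE 0.25, 95% interval -0.85 to 0.42, edgeR adjusted p = 0.789). The sign rested on control 1, since the log2 fold change was 0.11 without control 1 and -0.49 without control 2.

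sqv-1 encodes the decarboxylase that turns UDP-glucuronic acid into UDP-xylose, the sugar that starts the linker. It had 159 and 164 CPM in the ketamine libraries, against 135 and 136 CPM in the controls. Both ketamine libraries lay above both controls. The log2 fold change was 0.25 (SE 0.13, 95% interval -0.10 to 0.60, edgeR adjusted p = 0.748), the smallest unadjusted p of the 9 genes (0.121). It stayed between 0.22 and 0.27 whichever library was left out. An exact permutation test of 2 against 2 libraries cannot give a two-sided p below 0.33.

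SQV-7 carries UDP-glucuronic acid, UDP-N-acetylgalactosamine and UDP-galactose into the Golgi lumen. The transcript had 95.6 and 102 CPM in the ketamine libraries, against 168 and 82.4 CPM in the controls. The controls differed 2.04-fold from each other, and the ketamine libraries lay between them. The log2 fold change of sqv-7 was -0.34 (SE 0.35, 95% interval -1.25 to 0.57, edgeR adjusted p = 0.775), the lowest value and the widest interval of the pathway. Without control 1 it was 0.23, and without control 2 it was -0.76. Against control 1 alone, edgeR gave sqv-7 an adjusted p of 0.000261 and sqv-4 one of 0.00122, where the adjusted p over their alternatives reached 1.00 for both. sqv-1 (0.0150) and sqv-2 (0.0129) also had an adjusted p under 0.05 in that fit, with the 1 control. There the spread came from the 2 ketamine libraries, 1725 genes were called higher and 678 lower, and no member reached 2-fold.

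The linker is begun by the xylosyltransferase SQV-6, which adds xylose to serine. sqv-6 had 52.2 and 52.5 CPM in the ketamine libraries, against 47.4 and 47.0 CPM in the controls. The groups did not overlap, and the means of 52.3 ± 0.228 CPM under ketamine and 47.2 ± 0.266 CPM in controls (SD, n = 2 each) differed by a log2 fold change of 0.15 (SE 0.16, edgeR adjusted p = 0.778). The SE of edgeR borrows the spread of genes of like level, and is wider than that of the 2 libraries alone.

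SQV-3 adds the first galactose of the linker. sqv-3 had 46.7 and 49.0 CPM in the ketamine libraries, against 52.0 and 38.2 CPM in the controls, so that the groups overlapped. Its log2 fold change was 0.08 (SE 0.22, edgeR adjusted p = 0.905). The value was 0.30 without control 1, and it turned to -0.12 without control 2 and to -0.024 with upper-quartile scaling. usp-46 (sharing 527 bases with sqv-3) had 1808 and 1560 counts in the ketamine libraries and 2819 and 1579 in the controls. Its count was highest in control 1, the largest library, as was the count of every member. These counts are not scaled, and the part of usp-46 in the sqv-3 values was not tested.

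SQV-2 adds the second galactose. sqv-2 had 49.5 and 50.8 CPM in the ketamine libraries, against 38.5 and 44.3 CPM in the controls, and the groups did not overlap. Its log2 fold change of 0.28 (SE 0.17, 95% interval -0.17 to 0.73, edgeR adjusted p = 0.748) was the highest of the 9. Without control 1 it was 0.15 and without control 2 it was 0.39.

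SQV-8 closes the linker with glucuronic acid. sqv-8 had 67.6 and 73.6 CPM in the ketamine libraries, against 59.6 and 64.3 CPM in the controls. Both ketamine libraries were higher, by a log2 fold change of 0.19 (SE 0.16, edgeR adjusted p = 0.751), and without control 1 the value was 0.11. Of the 4 linker genes, 3 thus had non-overlapping groups with ketamine higher, an arrangement that 23.1% of all genes tested showed, and the 95% interval of each log2 fold change included 0.

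sqv-5 encodes the chondroitin synthase that extends the chain. It had 305 and 325 CPM in the ketamine libraries, against 296 and 309 CPM in the controls. The ranges overlapped, and the log2 fold change was 0.06 (SE 0.15, 95% interval -0.32 to 0.43, edgeR adjusted p = 0.902). It was -0.040 with upper-quartile scaling and 0.0009 without control 1.

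mig-22 encodes the chondroitin polymerizing factor, which works together with SQV-5 in chain extension and is named for the migration of the distal tip cells of the gonad. It had 166 CPM in both ketamine libraries, against 178 and 162 CPM in the controls. The ketamine libraries lay between the controls. The log2 fold change was -0.04 (SE 0.14, 95% interval -0.40 to 0.33, edgeR adjusted p = 0.935), the value nearest to 0 in the pathway, and 92.6% of the genes tested had a larger absolute value than mig-22.

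**Figure D2:**
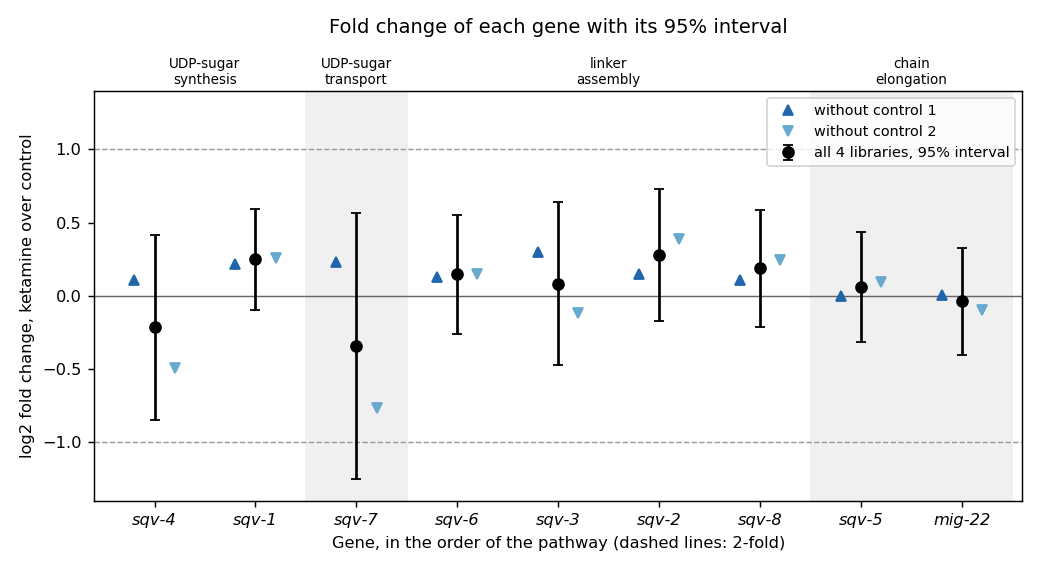
log2 fold change of each gene, ketamine over control (edgeR, black points with 95% intervals, 4 libraries), with the value after leaving out control 1 (upward triangles) or control 2 (downward triangles). The intervals of 8 genes lie within the dashed lines at 2-fold, that of sqv-7 reaches -1.25, and the triangles of sqv-4 and sqv-7 lie on opposite sides of 0, as do those of sqv-3 (0.30 and -0.12) and, closer to 0, mig-22 (0.0047 and -0.10).

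The arrangement of the libraries differed among the members. In sqv-1, sqv-6, sqv-2 and sqv-8 both ketamine libraries lay above both controls (4 of 9), which 23.1% of all genes tested did. 0 of 9 had both ketamine libraries below both controls, against 20.6% of all genes. In sqv-4, sqv-7, sqv-3 and mig-22 control 1 was the highest of the 4 libraries (4 of 9), which was so for 38.4% of all genes tested, a share near that of the members. In sqv-5 neither was seen. A control 1 to control 2 ratio at least as large as that of sqv-7 was found in 5.41% of the genes tested, as large as that of sqv-4 in 14.6%, and as large as that of sqv-3 in 22.7%. The ketamine libraries differed by at most 0.12 on the log2 scale in any member (sqv-8), while the controls differed by up to 1.03 (sqv-7). The smallest member count, 1336 for sqv-3 in control 2, has an exact Poisson 95% interval of 1265 to 1410, which covers counting error only.

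Without control 1, all 9 log2 fold changes were above 0, from 0.0009 for sqv-5 to 0.30 for sqv-3, with a median of 0.13. Both ketamine libraries lay above control 2 in 8 of the 9 genes, all but sqv-5, and in 41.6% of all genes tested. Without control 2, 5 of the 9 were above 0 and the median was 0.09. No member reached 2-fold in either case. With upper-quartile scaling the median of the 9 turned to -0.024, and that of all genes fell by 0.10 from its value with TMM.

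Levels of different genes were compared by the deposited FPKM (counts scaled by gene length and by library), since CPM depends on gene length. The most abundant transcript was sqv-4, at 151 ± 7.12 FPKM under ketamine and 175 ± 53.5 FPKM in controls (SD, n = 2 each). The least abundant was sqv-6, at 21.0 ± 0.0657 FPKM under ketamine and 18.9 ± 0.147 FPKM in controls (SD, n = 2 each). The enzyme that starts the linker was thus the scarcest transcript of the pathway, and its FPKM still exceeded that of 64% of the genes tested.

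In the ketamine libraries and in control 2 the order by FPKM was the same, sqv-4 followed by sqv-5, sqv-1, sqv-7, sqv-8, mig-22, sqv-2, sqv-3 and sqv-6. Under ketamine no neighbours in this order overlapped, although mig-22 (47.5 and 47.6 FPKM) and sqv-2 (43.4 and 44.5 FPKM) came close. In control 1, sqv-7 ranked second, at 131 FPKM against 64.1 FPKM in control 2. By group means sqv-7 (97.6 FPKM) stood above sqv-5 (92.9 FPKM) in controls, but their ranges overlapped and this order does not hold beyond the spread of sqv-7.

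**Figure D3:**
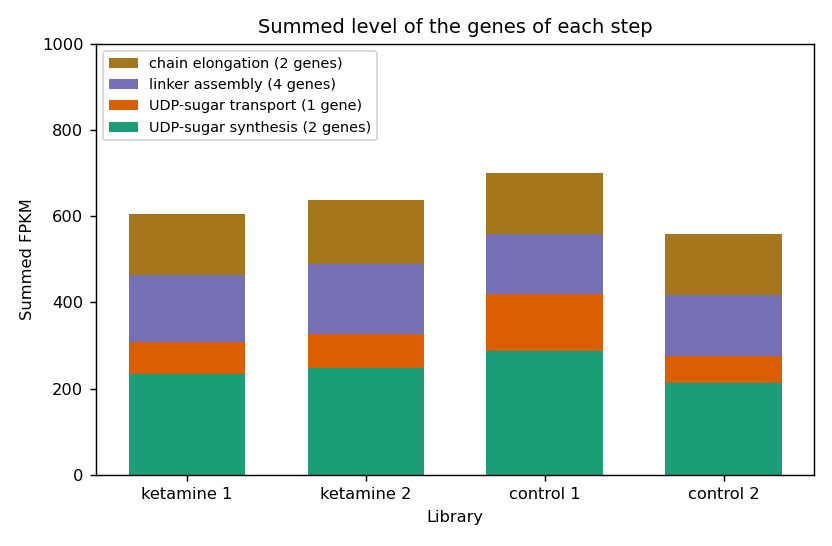
Summed FPKM of the genes of each step in the 4 libraries. The summed level of the 9 genes was 605 and 637 FPKM in the ketamine libraries and 701 and 558 FPKM in the controls, and the transport step (orange, sqv-7) is widest in control 1.

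The pathway's make-up within each library does not depend on how libraries are scaled. The linker genes held 25.7% of the summed FPKM of the 9 genes in both ketamine libraries, against 20.0% in control 1 and 25.1% in control 2. The elongation genes held 23.4% and 23.1% in the ketamine libraries, against 20.3% and 25.3% in the controls. sqv-7 alone held 12.3% and 12.5% under ketamine, against 18.7% and 11.5% in controls. The ketamine libraries were thus nearly alike, and differed less from control 2 than control 1 did.

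sqv-5 and mig-22, whose products act as partners, kept a ratio of 1.97 and 2.10 (sqv-5 over mig-22, FPKM) in the ketamine libraries, against 1.78 and 2.04 in the controls. The groups overlapped. The ratio of sqv-4 to sqv-1, the successive enzymes of UDP-sugar synthesis, was 1.66 and 1.72 under ketamine, against 2.85 and 1.83 in controls. Here the controls were both above the ketamine libraries, and control 1 held the highest value. The ratio of sqv-7 to sqv-5 was 0.794 and 0.795 under ketamine, against 1.44 and 0.676 in controls, and that of sqv-4 to sqv-7 was 1.96 and 1.97 under ketamine, against 1.63 and 2.15 in controls. In these the groups overlapped, so that 1 of the 4 ratios computed had groups apart, and none was tested.

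The nearest neighbours of the pathway were read from lists chosen by function. The UDP-sugar precursor list holds the hexosamine enzymes and the epimerase that makes UDP-galactose, and 7 of its 8 genes were matched and tested. edgeR called 0 of 7 (0.095% of all genes tested), and their median log2 fold change was -0.13. gale-1, the UDP-galactose epimerase gene, had 106 and 123 CPM in the ketamine libraries, against 196 and 148 CPM in the controls. Both ketamine libraries lay below both controls, with a log2 fold change of -0.59 (SE 0.20, unadjusted p = 0.0314, adjusted p = 0.748, edgeR). The extremes were gna-1 (glucosamine-phosphate N-acetyltransferase) at -0.63 and rml-1 (K08E3.5) at 0.25. Control 1 was the highest library in 5 of the 7, and in 38.4% of all genes tested. In gale-1 and gna-1 (2 of 7) both ketamine libraries lay below both controls, which 20.6% of all genes tested did. In gfat-1 and rml-1 (2 of 7) they lay above both controls, which 23.1% of all genes tested did.

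Of 13 other nucleotide sugar transporter genes, 10 were tested, 0 were called (0.095% of all genes tested) and the median log2 fold change was -0.08. ugtp-1 was the lowest at -0.34, the same size as sqv-7, and it too was highest in control 1, with 46.4 and 47.7 CPM in the ketamine libraries and 74.7 and 44.0 CPM in the controls. nstp-3 was the highest at 1.90 (unadjusted p = 0.0234, adjusted p = 0.748, edgeR), from 19 and 13 counts under ketamine against 8 and 3 in controls. It passed the filter on low counts only through the ketamine libraries, so that its fold change and p give no support for a difference. Of the precursor, transporter, heparan and core protein lists, it was the only gene past 2-fold at an unadjusted p under 0.05, which 3.68% of all genes tested were.

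Heparan sulfate shares the linker made by SQV-6, SQV-3, SQV-2 and SQV-8, and its own chain is polymerised by RIB-1 and RIB-2. All 8 heparan genes listed were tested, 0 were called (0.095% of all genes tested), and the median log2 fold change was -0.13. rib-1 had 38.3 and 39.2 CPM in the ketamine libraries, against 61.5 and 36.8 CPM in the controls, a log2 fold change of -0.34 (SE 0.29, edgeR adjusted p = 0.751). The highest of the list was hst-3.2 at 0.31, which had at most 27 counts. rib-2 had a log2 fold change of -0.13 (SE 0.19, edgeR adjusted p = 0.826). The elongation genes of the chondroitin branch, sqv-5 at 0.06 and mig-22 at -0.04, were not tested against those of the heparan branch. chhy-1, which encodes a chondroitin hydrolase, had 8.40 and 7.17 CPM in the ketamine libraries, against 9.81 and 9.41 CPM in the controls. Its log2 fold change was -0.30 (SE 0.23, edgeR adjusted p = 0.748), from 207 to 452 counts per library. Both ketamine libraries lay below both controls, which 20.6% of all genes tested did.

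The core proteins that carry the chains are encoded by the cpg genes. Of 13 such genes (chondroitin proteoglycan), 11 were tested and 0 were called (0.095% of all genes tested). The median log2 fold change was 0.08, within a range of -1.15 to 0.88. The gene at the median, cpg-20, had at most 19 counts in a library. cpg-1, a core protein of the eggshell, had 2488 and 2469 CPM in the ketamine libraries, against 813 and 1871 CPM in the controls, a log2 fold change of 0.88 (SE 0.41, unadjusted p = 0.0861, adjusted p = 0.748, edgeR). cpg-2, its partner in the eggshell, had 2794 and 2623 CPM under ketamine, against 1446 and 2001 CPM in controls (log2 fold change 0.65, SE 0.22, unadjusted p = 0.0340, adjusted p = 0.748, edgeR). In both genes control 1 was the lowest library, the reverse of sqv-4 and sqv-7.

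cpg-3 had 633 and 626 CPM in the ketamine libraries, against 419 and 463 CPM in the controls (log2 fold change 0.51, SE 0.15, unadjusted p = 0.0213, adjusted p = 0.748, edgeR). With cpg-4 at 0.37, these were the 4 core protein genes of 11 in which both ketamine libraries lay above both controls (23.1% of all genes tested). The lowest was cpg-9 at -1.15, which had 905 counts in control 2 against 221 to 373 in the other libraries. Among the 13 oocyte and eggshell markers 7 had both ketamine libraries above both controls (23.1% of all genes tested). edgeR called 0 of the 13 (0.095% of all genes tested), and the median log2 fold change was 0.23, with egg-5 the lowest at -0.05. perm-2, the highest at 0.76 (SE 1.19), had 843 and 901 CPM in the ketamine libraries, against 52.3 and 978 CPM in the controls, so that its value came from control 1 alone. The part of these oocyte markers in the cpg values, and in those of the synthesis genes, was not tested.

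**Figure D4:**
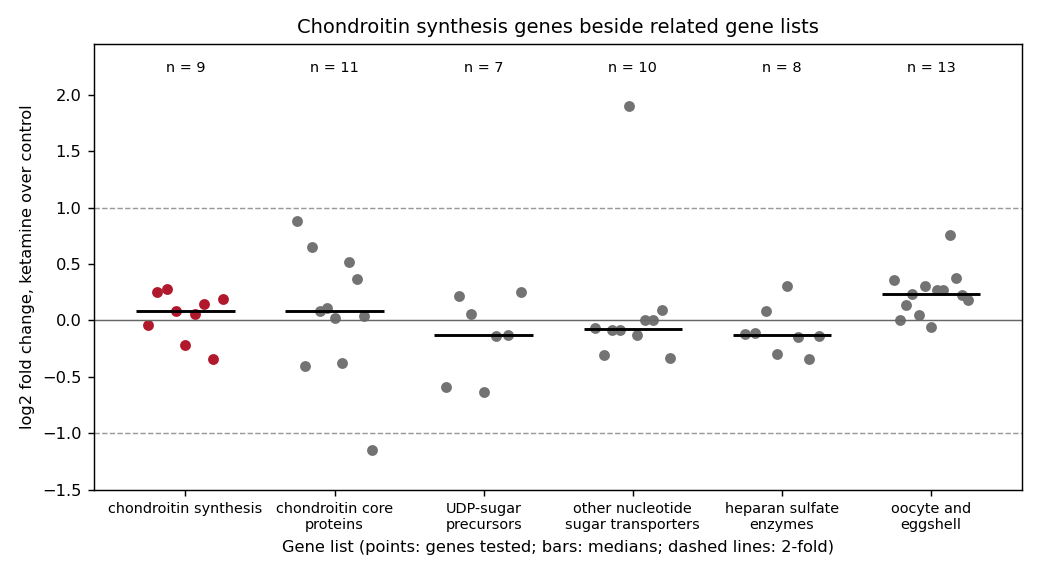
log2 fold change (ketamine over control, edgeR) of each gene tested in the chondroitin synthesis list (red) and 5 related lists (grey), with bars at the medians. The synthesis genes span -0.34 to 0.28, inside the range of the core protein genes (-1.15 to 0.88).

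Other marker lists moved as follows. Of 30 major sperm protein genes, 28 were tested. The summed CPM of the 28 was 251 and 203 in the ketamine libraries and 420 and 366 in the controls. In 23 of the 28 both ketamine libraries lay below both controls, against 20.6% of all genes tested. edgeR called 0 of the 28 (0.095% of all genes tested) and gave 14 an unadjusted p under 0.05, against 6.09% of all genes tested. These genes are near-identical copies, so that the split of reads among them is uncertain. The summed CPM of the vitellogenins was 65173 and 65060 under ketamine and 42820 and 76883 in controls, a sum carried mostly by vit-2, vit-5 and vit-6. vit-1 (log2 fold change -1.18, unadjusted p = 0.00917, adjusted p = 0.748, edgeR), vit-3 (-1.03, unadjusted p = 0.00503, adjusted p = 0.677, edgeR) and vit-4 (-0.57, unadjusted p = 0.0655, adjusted p = 0.748, edgeR) had both ketamine libraries below both controls (3 of 6, against 20.6% of all genes tested). vit-2 (0.34) and vit-6 (0.39) had log2 fold changes above 0, and vit-5 was at -0.02. edgeR called 0 of the 6 vitellogenins (0.095% of all genes tested). Of the 12 molting markers, 7 had both ketamine libraries above both controls, where 23.1% of all genes tested did. Their median log2 fold change was 0.95, and edgeR called 0 of the 12 (0.095% of all genes tested). The list holds dpy-7 (1.48), rol-6 (1.54) and bli-1 (1.94, its highest). Their unadjusted p in edgeR was 0.0539, 0.0430 and 0.0922, and the adjusted p of each was 0.748. bli-1 had 13.4 and 5.68 CPM in the ketamine libraries, against 0.673 and 4.35 CPM in the controls. The 2 markers below 0 were nas-36 (-0.28, the lowest) and nas-37 (-0.19). In nas-37 both ketamine libraries lay below both controls, which 20.6% of all genes tested did. The authors reported dpy-7, rol-6 and bli-1 as upregulated in the same libraries, so that the list was not chosen apart from these data. Of 5 tested zygotic embryo markers, 2 had both ketamine libraries above both controls (23.1% of all genes tested). How the make-up of the animals by stage or germline bore on the 9 genes was not tested.

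Likeness to the members was measured as the root mean square difference over the 4 libraries between a gene's centred log2 CPM and the mean centred profile of the 9 genes, among 3836 genes of like level. The nearest were T10E9.2, parp-2, drp-1, tat-1 and rsd-6, at 0.0061 to 0.011. 345 genes came nearer to this mean profile than mig-22, the closest member, and 25.5% lay within 0.1. Of the members, sqv-7 (0.33), sqv-4 (0.19), sqv-2 (0.18), sqv-8 (0.13) and sqv-1 (0.12) themselves lay farther than 0.1 from it. Closeness to within 0.1 was thus common among genes of like level.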

How the data were processed

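Reads were aligned by the authors with HISAT2 2.0.5 to WBcel235 and counted with featureCounts 1.5.0-p3 (StringTie 1.3.3b is also in the submitters' processing notes). The authors deposited raw counts per gene and, beside them, FPKM values, which are those counts scaled by gene length and by 1 factor per library. The strand setting and the treatment of reads with several matches are not given in the sources used here. The table heads its control columns as wild type, and these were assigned by their number.

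WormBase identifiers were found for 46183 of 46643 rows. The main comparison used edgeR 4.0.16 in R 4.3.3 (quasi-likelihood test, TMM) on the 15793 genes that reached 10 counts in 2 or more libraries, without a replicate block. A gene was called at a Benjamini-Hochberg adjusted p below 0.05 with a change of 2-fold or more. The SE is the log2 fold change over the square root of F, and the 95% intervals of the members use 4.94 degrees of freedom. Alternatives were DESeq2 1.42.0, limma 3.58.1 on log2(FPKM + 1) or log2(FPKM + 0.1), other scalings and filters, a replicate block and leaving out each library.

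The text names the 9 members, the extremes of related lists, any gene of lists of up to 8, and the 5 genes nearest by profile. The extremes of the sperm and embryo lists were not named. cpg-2, cpg-3, cpg-4, cpg-20, dpy-7, rol-6, nas-37, usp-46 and tut-2 fall outside this rule and were named after their values were seen. The members and lists were chosen with earlier results of these data known. uap-1, the eighth precursor gene, was not analysed here.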

Additional observations from a re-analysis of the deposited data

How the results depend on the processing

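No member was called under any of the 15 alternatives (0 of 9 in each), and of 126 member log2 fold changes recomputed, 6 changed sign. Upper-quartile scaling, which lowered the median of all genes to -0.10, against -0.01 with TMM, gave sqv-3 (-0.024) and sqv-5 (-0.040) values below 0 that still lay above that median. When 1 library was left out, the value ran from -0.49 to 0.11 for sqv-4 and from -0.76 to 0.23 for sqv-7 (positive without control 1), from -0.12 to 0.30 for sqv-3 (negative without control 2) and from -0.10 to 0.0047 for mig-22 (positive without control 1). The median of the members ran from -0.024 to 0.10 over the alternatives that keep all libraries and from 0.05 to 0.13 when 1 library was left out, against 0.08 with all 4.

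The counts over all genes moved more. Against 15 genes higher and 0 lower, DESeq2 called 109 higher and 23 lower, edgeR without a count filter 67 and 6, and limma on log2(FPKM + 1) 24 higher. An unadjusted p under 0.05 in edgeR gave 323 higher and 258 lower. With 1 library left out the counts ran from 21 to 1725 higher and from 0 to 678 lower, the largest without control 2, while without control 1 they were 102 and 46 (edgeR, the lone library assumed to vary like the other group). The cause was not tested. With a replicate block 34 genes were called higher and 0 lower, and 0 members. The labels do not say whether same-numbered libraries were paired. Deviations of same-numbered libraries from their group means correlated at 0.08 across genes. With 2 libraries per group, this value cannot show whether a pairing existed. Leaving out mitochondrial genome genes, an alternative chosen after seeing the data, gave 14 higher. Ranked by CPM, which is not per length, 2 of the 9 members kept their rank by FPKM, as gene lengths differ.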
